A study of Sus scrofa with 12 samples.

Results

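The genes described here encode proteins that store maternal messenger RNAs and control when they are translated. They are CPEB1, CPEB4, DAZL, YBX2, ZAR1, ZAR1L, PATL2, LSM14B, PABPC1L and EIF4ENIF1, and they were chosen by name, as the rows of the count table that carry 1 of these 10 gene symbols. Of the 10 symbols 9 were found among the 29329 genes of the table. All 9 passed the filter on low counts that left 17995 genes for testing, whereas DAZL had no row under that symbol and was not analysed here.

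Porcine (Sus scrofa) embryos made by in vitro fertilisation (IVF) were measured by SMART-seq, in which an oligo(dT) primer copies polyadenylated RNA into cDNA that is amplified before sequencing. The 12 libraries form 4 groups of 3. The groups con-2c and con-4c are IVF embryos that the labels call a blank control, titled as 2-cell and 4-cell, and si-2c and si-4c are IVF embryos with the same stages in their titles that were injected with Si-CCNB2, a small interfering RNA that targets cyclin B2. Every library was a pool of several embryos, so embryos of one pool are not separate replicates. Whether the control embryos received an injection is not clear from the labels and the methods together, and a difference between si and con can thus include the injection itself. The comparisons ask how the mRNAs of the storage and translation control genes differ between the titled stages, as 4c relative to 2c, and between the si and con embryos within a titled stage, as si relative to con. A first crossed comparison sets si-4c relative to con-2c and a second sets si-2c relative to con-4c. The injected agent is shown first because the comparisons rest on it. Both sequences below are those listed by the study, in the order of bases it gives, and which of them was used for these libraries is not given.
First Si-CCNB2 duplex listed: gcagguccacuccaaguuu
Second duplex listed: gcuuauaccaguucccaaa

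In all 12 libraries the title names another stage than the tissue label does, and groups follow the titles. Grouping by tissue label would swap 2c and 4c throughout, which turns each comparison of stages around. It would also reverse the sign of the interaction, the si effect at 4c less that at 2c. The same si libraries would still be set against the same con libraries. CCNB2, the targeted gene, was at 464 ± 21.7 CPM (the counts of a gene relative to the scaled total of its library) in con-2c, 475 ± 41.9 CPM in con-4c, and at 22.7 ± 5.58 and 42.6 ± 3.66 CPM in si-2c and si-4c (mean ± SD, n = 3), with libraries scaled here and throughout by TMM factors. Library totals were between 27785233 and 39510908 counts. Across all genes tested, libraries of si-4c correlated with those of con-2c at a mean Pearson r of 0.963 and with those of con-4c at 0.889, and libraries of si-2c correlated with con-4c at 0.949 and with con-2c at 0.922. The libraries titled si-4c thus stood nearest to those titled con-2c, and those titled si-2c nearest to those titled con-4c. Whether the stage titles of the si libraries are exchanged relative to those of the con libraries cannot be told from the labels. If they were, the si and con libraries of equal stage would be those of the crossed comparisons, and each value given for si relative to con at a titled stage, and the interaction, would change accordingly. All 10 oocyte and early embryo markers (GDF9, BMP15, ZP2 and others) were present. Their summed level was between 21400 and 26600 CPM in con-2c and between 24700 and 27100 CPM in si-4c, but only between 11100 and 11900 CPM in con-4c and between 11500 and 13100 CPM in si-2c. BTG4 made up 60.7% to 77.1% of this sum in each library, and without BTG4 the sum was 5930 to 6450 CPM in con-2c and 5950 to 6230 CPM in si-4c, against 3910 to 3950 CPM in con-4c and 4130 to 4510 CPM in si-2c. For 8 of the 10 markers both con-2c and si-4c had higher means than con-4c and si-2c, for 6 of them with no overlap of libraries. The exceptions were BMP15, with means of 887 and 1046 CPM in the groups of the high sum (con-2c, si-4c) and of 985 and 1228 CPM in the others, and ZP2, which was highest in si-2c. Of 10 cumulus and granulosa markers 7 were in the table, with a summed level of 5.53 to 12.5 CPM in any library, mostly FST, while HAS2 and CYP11A1 were at 0 in 3 of the 4 groups. Of 10 sperm markers 3 were in the table, with summed levels of 20.5 to 38.5 CPM, mostly ODF2L. Its group means were 34.05 and 31.5 CPM in con-2c and si-4c, and 20.4 and 20.55 CPM in con-4c and si-2c. Group means of AKAP4 were 0 to 0.648 CPM and those of CABYR 0.4265 to 1.04 CPM, so the sum says little about sperm RNA.

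A growing oocyte makes messenger RNAs that it does not translate at once, and the early embryo lives on these until its own genome is switched on. Storage rests on proteins that coat the mRNA, shorten its poly(A) tail and block its cap, and translation begins when cytoplasmic polyadenylation lengthens the tail and poly(A)-binding proteins join the tail to the cap complex. CPEB proteins bind the cytoplasmic polyadenylation element in the 3′ end of the mRNA, ZAR1, ZAR1L and YBX2 keep mRNA in store, PATL2, LSM14B and EIF4ENIF1 (the 4E-T protein) belong to complexes that hold the cap closed, and PABPC1L (ePAB) is the poly(A)-binding protein of oocytes. Because the cDNA was primed on the poly(A) tail, less of an mRNA and a shorter tail on it cannot be told apart in these values. The values are also relative to the scaled total of each library, so they give neither the number of cells nor the RNA per cell.

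Of the 10 genes 9 had a position on the RefSeq genes of Sscrofa11.1, the build named in the submitters' processing notes, found by symbol. CPEB1 is on chromosome 7 from 52329054 to 52382408, CPEB4 on chromosome 16 from 50430345 to 50499086, and DAZL on chromosome 13 from 3762896 to 3783848. YBX2 is on chromosome 12 from 52635383 to 52642443, ZAR1 on chromosome 8 from 38386520 to 38391618, and ZAR1L on chromosome 11 from 8795478 to 8805876. EIF4ENIF1 is on chromosome 14 from 48156835 to 48204701. LSM14B and PABPC1L share chromosome 17, at 61553953 to 61566504 and 47321259 to 47351905. Values are counts over whole genes, so exons and untranslated regions were not separated, and levels were not compared between genes because transcript lengths were not used.

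ZAR1L, a relative of the zygote arrest protein ZAR1, differed most clearly among the storage genes. Its level was 144.5, 138 and 153 CPM in the con-2c libraries and 144, 144.9 and 135.2 CPM in the si-4c libraries. It was 80.1, 79.6 and 81.4 CPM in con-4c and 87.9, 83.2 and 81.1 CPM in si-2c. The con-2c and si-4c libraries were all high, the con-4c and si-2c libraries were all low, and the ranges of the high and the low groups did not overlap. Against con-2c, the ZAR1L level was 55.4% in con-4c (log2 difference −0.85 ± 0.073 SE, by edgeR adjusted p = 9.87e-08) and 57.9% in si-2c (−0.79 ± 0.073, adjusted p = 4.22e-07). It was 1.76-fold higher in the si than in the con libraries at 4c (log2 difference 0.81 ± 0.073, edgeR adjusted p = 1.69e-07) and 1.68-fold higher at 4c than at 2c among the si libraries (0.75 ± 0.073, adjusted p = 7.57e-07). In the order con-2c, si-4c, si-2c, con-4c, the neighbours con-2c and si-4c did not differ beyond their spread (log2 difference −0.04, 95% interval −0.19 to 0.12), nor did si-2c and con-4c (0.06, 95% interval −0.09 to 0.22). The oocyte marker sum given above, with or without BTG4 but not its members BMP15 and ZP2, was high and low in the same groups, and its part in the ZAR1L values was not tested.

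ZAR1 itself, which is needed for the passage from oocyte to embryo in mammals, was at 6.56, 7.37 and 9.75 CPM in con-2c, and at 4.51, 6.16 and 5.40 CPM in con-4c. The si-2c libraries held 6.90, 6.91 and 7.55 CPM and the si-4c libraries 7.74, 9.31 and 8.60 CPM. Every con-4c library lay below every library of the other groups. ZAR1 was 1.60-fold higher in the si than in the con libraries at 4c (log2 difference 0.67 ± 0.18 SE, by edgeR adjusted p = 0.00814), a call that was lost when libraries were scaled by their totals (0.42, adjusted p = 0.125). The con stages differed too, with a lower level at 4c (−0.56 ± 0.18, edgeR adjusted p = 0.0253), and that call was lost with library totals (adjusted p = 0.285), in a fit of those groups alone (adjusted p = 0.0622), and without con-2c replicate 3 (adjusted p = 0.119) or either replicate 1 or 3 of con-4c (adjusted p = 0.109 and 0.0612). In falling order the group means were 8.55 in si-4c, 7.89 in con-2c, 7.12 in si-2c and 5.36 CPM in con-4c, and no neighbours in this order passed the test (edgeR adjusted p of 0.923, 0.61 and 0.224), although the si-2c libraries all lay above the con-4c libraries (log2 difference 0.41, 95% interval 0.02 to 0.80).

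YBX2, the germ cell Y-box protein that packs stored mRNA, did not pass the test in any comparison of the fit used here. Its libraries ranged from 15.8 CPM, in con-2c, to 24.4 CPM, also in con-2c, with group means of 19.9 ± 4.32 and 16.9 ± 1.03 CPM for con at 2c and 4c and of 21.3 ± 1.51 and 21.2 ± 2.23 CPM for si (mean ± SD, n = 3). Neighbours among si-2c, si-4c and con-2c differed by less than the spread within con-2c. The log2 difference between si and con at 4c was 0.33 (95% interval 0.02 to 0.63, edgeR adjusted p = 0.0863), and that between the con stages was −0.24 (95% interval −0.55 to 0.07), which turned to 0.02 with library totals. YBX2 passed in single alternatives, between si and con at 2c with library totals (0.48, adjusted p = 0.0356), between si and con at 4c in a fit of those groups alone (0.32, adjusted p = 0.0441) and without con-2c replicate 3 (0.33, adjusted p = 0.0443), and between the con stages without con-2c replicate 2 (−0.39, adjusted p = 0.0481).

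**Figure D1:**
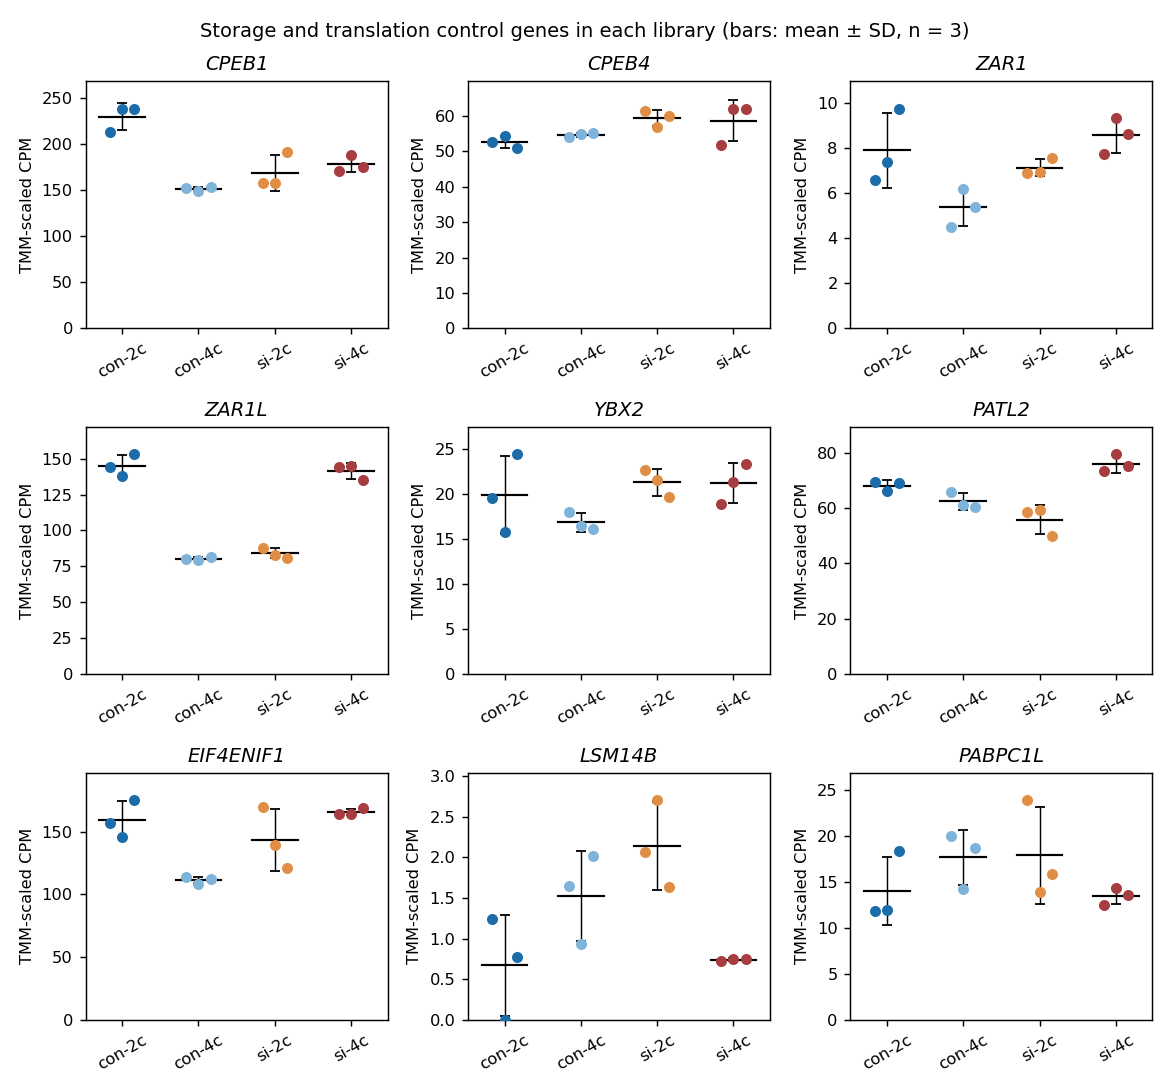
Level of the 9 genes in each library, as TMM-scaled CPM on the y axis from 0, with the con groups on the left of the x axis and the si groups on the right. Points are libraries, the wide bar is the group mean and the narrow bars are 1 SD (n = 3). ZAR1L is high in con-2c and si-4c and low in con-4c and si-2c, whereas CPEB1 is highest in con-2c and LSM14B stays at or under 2.71 CPM.

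CPEB1, which recruits the polyadenylation machinery to stored mRNAs, was at 212.5, 238.3 and 237.5 CPM in con-2c. The other groups were lower, with 151.6, 148.6 and 152.7 CPM in con-4c, 157.9, 157.1 and 191.1 CPM in si-2c, and 170.9, 187.7 and 175.4 CPM in si-4c. All con-2c libraries lay above all libraries of the other groups, and 1 si-2c library lay above every si-4c library. Against con-2c, CPEB1 was at 65.8% in con-4c (log2 difference −0.60 ± 0.086 SE, by edgeR adjusted p = 3.04e-05) and at 73.6% in si-2c (−0.44 ± 0.086, edgeR adjusted p = 0.000809). The second of these calls was lost with library totals (−0.05, adjusted p = 0.774). It was 1.18-fold higher in the si than in the con libraries at 4c (0.24 ± 0.086, edgeR adjusted p = 0.0389). That difference was not called in DESeq2 (0.20, adjusted p = 0.064), with RLE factors (0.20, adjusted p = 0.0942) or among genes with a mean of at least 10 CPM (0.11, adjusted p = 0.262), turned to −0.02 with library totals (adjusted p = 0.911) and missed the threshold in 5 of 12 fits that each left out 1 library. Those were the fits without con-4c replicate 1, 2 or 3 (adjusted p = 0.0813, 0.102 and 0.0814) and without si-4c replicate 2 or 3 (adjusted p = 0.139 and 0.0724). In the order con-2c, si-4c, si-2c, con-4c, si-4c was at 77.6% of con-2c (log2 difference −0.37 ± 0.086) and missed the threshold in edgeR (adjusted p = 0.0652) but passed it in DESeq2 (adjusted p = 0.00269). The later neighbours did not pass the test (adjusted p = 0.569 between si-4c and si-2c, and 0.337 between si-2c and con-4c), although all si-2c libraries lay above all con-4c libraries.

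CPEB4, a relative of CPEB1 that acts later in meiosis, had the smallest ratio of highest to lowest group mean of the 9 genes, 1.13. Its group means were 52.7 ± 1.76 and 54.7 ± 0.539 CPM for con at 2c and 4c and 59.5 ± 2.37 and 58.7 ± 5.87 CPM for si, and its libraries ran from 50.9 to 62.2 CPM. The si-2c libraries lay above all con-2c libraries, with a log2 difference of 0.17 (95% interval −0.01 to 0.36) that did not pass the test (edgeR adjusted p = 0.148). It passed with library totals (0.57, adjusted p = 0.000292) and among genes with a mean of at least 10 CPM (0.28, adjusted p = 0.012). CPEB4 did not pass the test in the other comparisons of 2 groups, where log2 differences were between −0.02 and 0.16, nor in the interaction (−0.07). With library totals it passed between the con stages (0.33, adjusted p = 0.0178), between the si stages (−0.40, adjusted p = 0.00542) and in the interaction (−0.73, adjusted p = 0.000463), which it also passed among genes with a mean of at least 10 CPM (−0.30, adjusted p = 0.039).

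EIF4ENIF1, the 4E-T protein that binds the cap protein eIF4E and keeps it from the translation machinery, was at 157.1, 145.8 and 175.1 CPM in con-2c and 113.6, 108.4 and 112.3 CPM in con-4c. It was at 169.6, 139.5 and 121.1 CPM in si-2c and at 164.1, 163.9 and 168.5 CPM in si-4c. The con-4c libraries were the lowest and lay close together, and the si-2c libraries were spread over the widest range. EIF4ENIF1 was at 70.0% of its con-2c level in con-4c (log2 difference −0.52 ± 0.10 SE, by edgeR adjusted p = 0.000847) and 1.49-fold higher in the si than in the con libraries at 4c (0.57 ± 0.10, adjusted p = 0.000352). With library totals these became −0.25 (adjusted p = 0.117) and 0.31 (adjusted p = 0.0501). The si-2c libraries were 1.29-fold higher than the con-4c libraries (0.36 ± 0.10, edgeR adjusted p = 0.0415), a call that was lost in 9 of 12 fits that each left out 1 library, with adjusted p up to 0.219 without si-2c replicate 1. Along the order si-4c, con-2c, si-2c, con-4c, the first neighbours did not differ beyond their spread (adjusted p = 0.952), and con-2c and si-2c did not pass the test (adjusted p = 0.311). Without si-2c replicate 1, EIF4ENIF1 passed between si and con at 2c (−0.29, adjusted p = 0.035) and between the si stages (0.35, adjusted p = 0.0141).

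PATL2, the oocyte form of the decay factor Pat1, was at 69.5, 66.1 and 69.0 CPM in con-2c and 66.0, 61.2 and 60.4 CPM in con-4c. It was at 58.5, 59.2 and 49.8 CPM in si-2c and at 73.4, 79.5 and 75.2 CPM in si-4c. The groups did not overlap, with si-4c highest and si-2c lowest. PATL2 was lower in the si than in the con libraries at 2c (log2 difference −0.29 ± 0.086 SE, by edgeR adjusted p = 0.0173), higher in the si than in the con libraries at 4c (0.28 ± 0.086, adjusted p = 0.0158) and 1.36-fold higher at 4c than at 2c among the si libraries (0.45 ± 0.085, adjusted p = 0.000794). With library totals these values were 0.10, 0.02 and 0.07, with adjusted p of 0.431, 0.878 and 0.63, so that none of them passed and the first changed its sign. The call between si and con at 2c was also lost without con-2c replicate 1 (adjusted p = 0.0554) or si-2c replicate 3 (adjusted p = 0.0677), in a fit of those groups alone (adjusted p = 0.0621) and among genes with a mean of at least 10 CPM (−0.19, adjusted p = 0.0863). The call between si and con at 4c was lost without con-4c replicate 2 or 3 or si-4c replicate 2 (adjusted p = 0.0537, 0.0638 and 0.0666), and among genes with a mean of at least 10 CPM (0.16, adjusted p = 0.141). In the order si-4c, con-2c, con-4c, si-2c, no neighbours passed the test (adjusted p = 0.514, 0.287 and 0.326).

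LSM14B, a partner of the helicase DDX6 in oocyte mRNA stores, was detected at very low counts. The con libraries held 39, 0 and 25 counts at 2c and 50, 28 and 62 counts at 4c, and the si libraries 85, 101 and 76 counts at 2c and 24, 26 and 25 counts at 4c. At 0 counts in con-2c replicate 2, the depth allowed up to 3 counts, a level of 0.0891 CPM. All si-2c libraries lay above all con-2c and si-4c libraries. No difference passed the test in the comparisons of 2 groups, and the intervals were wide (between si and con at 2c, log2 difference 1.67, 95% interval 0.17 to 3.18, edgeR adjusted p = 0.091). Without con-2c replicate 1 that difference became 2.47 (adjusted p = 0.0408), and without con-2c replicate 2, the library at 0, it became 1.08 and did not pass. Between the si stages the log2 difference was −1.52 (edgeR adjusted p = 0.121), and it passed without con-2c replicate 2 (adjusted p = 0.00874) and in a fit of those groups alone (adjusted p = 0.00721).

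PABPC1L, the poly(A)-binding protein of oocytes, was at 11.8, 11.9 and 18.3 CPM in con-2c and 20.0, 14.3 and 18.7 CPM in con-4c. Its level was 23.9, 13.9 and 15.8 CPM in si-2c and 12.5, 14.3 and 13.5 CPM in si-4c. The ranges of all groups overlapped, those of si-4c with si-2c and with con-4c only narrowly, and no comparison of 2 groups passed the test. The log2 difference between si and con at 4c was −0.39 (95% interval −0.83 to 0.04, edgeR adjusted p = 0.152), which passed at −0.65 with library totals (adjusted p = 0.0372), at −0.52 among genes with a mean of at least 10 CPM (adjusted p = 0.0358) and at −0.41 in a fit of those groups alone (adjusted p = 0.0377). PABPC1L passed between si and con at 2c with library totals (0.74, adjusted p = 0.0201) and without con-2c replicate 3 (0.59, adjusted p = 0.0469), whereas without si-2c replicate 1 the difference was 0.09 (adjusted p = 0.823). Between the si stages it passed with library totals (−0.80, adjusted p = 0.0134) and at a mean of at least 10 CPM (−0.53, adjusted p = 0.0352). How reads matching more than 1 gene were counted was not given in the sources used here, so values of PABPC1L and its relative PABPC1, and of ZAR1 and ZAR1L, are uncertain to that extent.

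**Figure D2:**
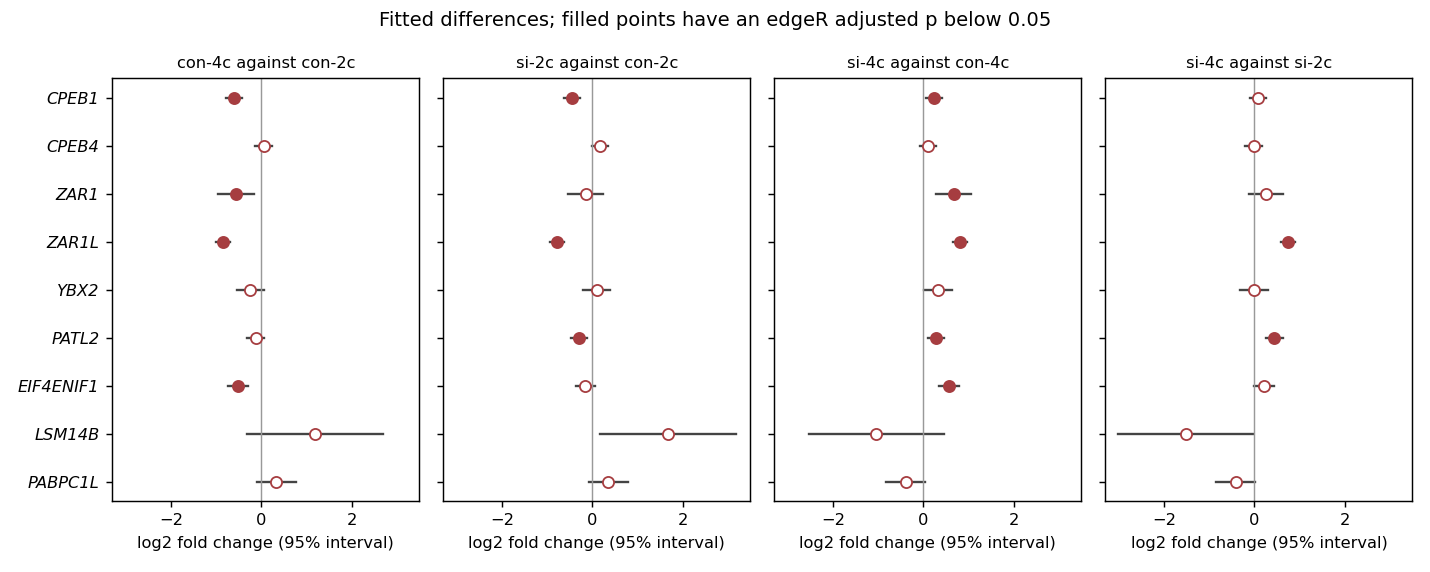
Fitted log2 difference (x axis, points) with its 95% interval (lines) for the 9 genes (y axis) in 4 comparisons, from the edgeR fit of all 12 libraries. Filled points have an adjusted p below 0.05. ZAR1L is filled in all 4 panels, the intervals of LSM14B are the widest, and CPEB4, YBX2, LSM14B and PABPC1L are open throughout.

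Counted over the list, 4 of the 9 genes were lower at 4c than at 2c among the con libraries at an adjusted p below 0.05 (CPEB1, ZAR1, ZAR1L and EIF4ENIF1), and 0 were higher. Among all genes tested 15.1% were lower and 20.7% higher. At 2c 3 of 9 were lower in si than in con (CPEB1, ZAR1L and PATL2) and 0 higher, against 12.3% lower and 16.6% higher among all genes. At 4c 5 of 9 were higher in si than in con (CPEB1, ZAR1, ZAR1L, PATL2 and EIF4ENIF1) and 0 lower, against 15.1% higher and 21.7% lower among all genes. The counts of 0 stood beside 0, 1 and 0 genes at an unadjusted p below 0.05 in the same direction, and DESeq2 gave 0 in each as well. With library totals these tallies changed, to 1 higher (CPEB4) and 2 lower (CPEB1 and ZAR1L) between the con stages and to 1 higher (ZAR1L) and 1 lower (PABPC1L) between si and con at 4c. The direction of the tally turned between si and con at 2c, to 4 higher (CPEB4, YBX2, LSM14B and PABPC1L) and 1 lower (ZAR1L). The comparisons share groups, so their counts are not separate evidence. Between the si stages 2 of 9 were higher (ZAR1L and PATL2) and 0 lower, against 12.1% and 16.9% of all genes, with 1 lower at an unadjusted p below 0.05 and 0 in DESeq2. With library totals the direction of this tally turned as well, to 1 higher (ZAR1L) and 4 lower (CPEB1, CPEB4, LSM14B and PABPC1L).

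In the crossed comparison of si-4c with con-2c, 0 of 9 genes were called by edgeR, where 1 was at an unadjusted p below 0.05 and DESeq2 called 1 (CPEB1, lower). Of all genes 0.106% were higher and 0.567% lower there. In the second crossed comparison 1 of 9 was higher (EIF4ENIF1) and 0 lower, against 2.22% higher and 5.32% lower among all genes. With the additional limit of an absolute log2 difference of at least 1, which the study used, 0 of 9 genes were called in any of these 6 comparisons by edgeR or DESeq2. At an unadjusted p below 0.05 that limit was passed by 1 gene (LSM14B) between si and con at 2c and between the si stages, and by 0 in the others. With that limit 17.7% of all genes were called between the con stages, 12.5% between si and con at 2c, 19% between si and con at 4c, 13.3% between the si stages, 0.333% in the first crossed comparison and 1.79% in the second crossed comparison.

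The difference between the si effect in the 4c and in the 2c libraries was tested itself, as an interaction. It was higher for 5 of 9 genes and lower for 2 at an adjusted p below 0.05, beside 18.2% higher and 27.3% lower among all genes. For ZAR1L the si effect was 1.60 higher on the log2 scale at 4c than at 2c (SE 0.10, edgeR adjusted p = 1.60e-09). CPEB1 (0.68 ± 0.12, adjusted p = 0.000203), EIF4ENIF1 (0.72 ± 0.15, adjusted p = 0.000658) and PATL2 (0.57 ± 0.12, adjusted p = 0.000975) moved in that direction, as did ZAR1 (0.82 ± 0.26, adjusted p = 0.015). LSM14B (−2.72, 95% interval −4.84 to −0.60, adjusted p = 0.0356) and PABPC1L (−0.74, 95% interval −1.36 to −0.13, adjusted p = 0.0459) moved in the other. With library totals ZAR1L alone stayed higher (0.95, adjusted p = 9.60e-06), while CPEB1 (0.03, adjusted p = 0.899), ZAR1 (0.18, adjusted p = 0.631), PATL2 (−0.08, adjusted p = 0.657) and EIF4ENIF1 (0.08, adjusted p = 0.743) were no longer called, and 3 genes were lower, CPEB4 (−0.73), LSM14B (−3.36, adjusted p = 0.0103) and PABPC1L (−1.39, adjusted p = 0.00216). The tally thus turned from 5 higher and 2 lower to 1 higher and 3 lower. ZAR1 was also lost without con-2c replicate 3 (adjusted p = 0.0505), LSM14B in 7 and PABPC1L in 8 of the 12 fits that each left out 1 library. With the limit on the fold, 1 gene was higher (ZAR1L) and 1 lower (LSM14B), beside 9.87% and 22.5% of all genes.

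The scaling of the libraries bears on these values, because the median over all genes is not 0 and moves with it. The median log2 difference of all genes was 0.11 between the con stages, 0.12 between si and con at 2c and −0.11 between si and con at 4c with TMM factors. It was 0.38, 0.52 and −0.37 when libraries were scaled by their totals. The TMM factors ran from 0.852 to 0.962 in con-2c and from 0.871 to 0.915 in si-4c, but from 1.06 to 1.09 in con-4c and from 1.12 to 1.21 in si-2c. Genes with a count numbered 18034 to 18819 in con-2c and 18083 to 18231 in si-4c, against 21181 to 21647 in con-4c and 22105 to 23279 in si-2c. A scaling moves all genes of a comparison alike, so a value relative to the median of all genes hardly depends on it by construction. Relative to that median, with TMM factors, ZAR1L between the con stages was at −0.96 and CPEB1 at −0.71. At 2c, for si relative to con, ZAR1L was at −0.91, CPEB1 at −0.57 and PATL2 at −0.41 relative to it. Between si and con at 4c ZAR1 was 0.79 above the median, EIF4ENIF1 0.68 and PATL2 0.40. LSM14B lay on the other side of the median, at 1.08, 1.55 and −0.93 in these comparisons. So did PABPC1L, at 0.22, 0.23 and −0.28, and CPEB4 between si and con at 2c, at 0.05. Over the 9 genes the median log2 difference was −0.24 between the con stages, −0.15 between si and con at 2c and 0.28 between si and con at 4c, which became 0.02, 0.24 and 0.02 with library totals. The first was −0.39 without con-2c replicate 2 and −0.15 without con-2c replicate 3. The second was −0.05 without si-2c replicate 3 and turned to 0.03 without con-2c replicate 3.

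**Figure D3:**
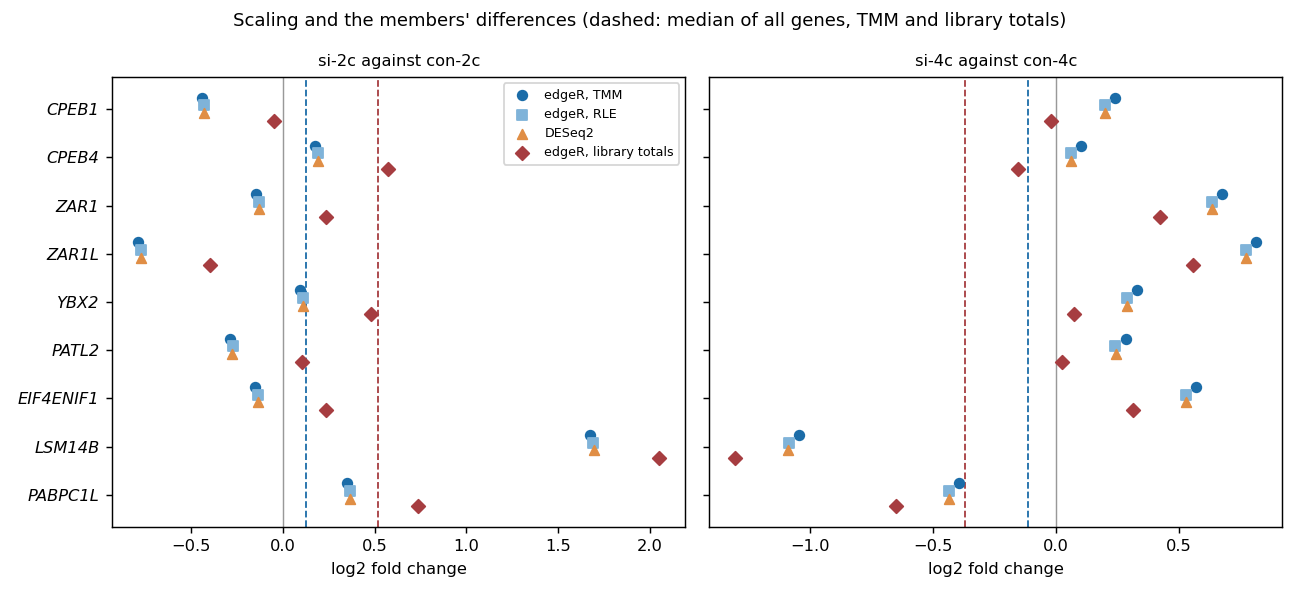
Log2 difference (x axis) of the 9 genes (y axis) between si and con at 2c and between si and con at 4c, by 4 ways of scaling or testing (marker shapes). Dashed lines are the median of all genes with TMM factors (0.12 and −0.11) and with library totals (0.52 and −0.37). The points for library totals are shifted with the median, to the right in the first panel and to the left in the second.

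The wider pathway was followed in a list of 60 partners and relatives of these proteins, of which 57 were in the table and 56 were tested. Between the con stages 4 of 56 were called higher and 2 lower with the limit on the fold, beside 14.4% and 3.25% of all genes, and 15 were higher and 11 lower at an adjusted p alone, where the shares of all genes were 20.7% and 15.1%. Between si and con at 2c 3 were called higher and 1 lower, beside 10.7% and 1.8% of all genes, and 14 were higher and 8 lower without the limit (16.6% and 12.3% of all genes). Between si and con at 4c 1 was called higher and 4 lower, beside 3.12% and 15.8% of all genes, and both directions had 13 without the limit (15.1% and 21.7% of all genes). The 8 tested genes of the cytoplasmic polyadenylation machinery (the poly(A) polymerase TENT2 and others) had 0 called in these 3 comparisons, and at an adjusted p alone 2, 3 and 1 were higher and 1, 0 and 1 lower. The 5 relatives of CPEB, YBX2 and DAZL on the list had 0 called as well, and at an adjusted p alone CPEB3 and YBX1 were higher between the con stages (0.68 and 0.38) and lower between si and con at 4c (−0.50 and −0.41).

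The calls on this list fell largely on the proteins that link the tail to the cap. PABPC1, the poly(A)-binding protein of most cells, was at 0.382, 1.07 and 2.09 CPM in con-2c and 0.8998, 1.16 and 0.538 CPM in si-4c. It was at 20.0, 17.1 and 15.5 CPM in con-4c and 11.5, 11.6 and 10.9 CPM in si-2c. PABPC1 was thus low in con-2c and si-4c and high in con-4c and si-2c, with no overlap between the low and the high groups. The low levels rest on 12, 36 and 68 counts in con-2c and 30, 40 and 18 counts in si-4c, which limits how exactly its folds are known. Its level was 14.8-fold higher at 4c than at 2c among the con libraries (log2 difference 3.88 ± 0.36 SE, by edgeR adjusted p = 2.52e-07), 9.53-fold higher in the si than in the con libraries at 2c (3.25 ± 0.36, adjusted p = 2.89e-06) and at 4.97% of con-4c in si-4c (−4.33 ± 0.37, adjusted p = 1.01e-07). Without con-2c replicate 3 the log2 differences between the con stages and between si and con at 2c were 4.54 and 3.94. EIF4G1, the scaffold that PABPC1 binds at the cap, was at 3.15 to 4.95 CPM in con-2c and 3.56 to 4.39 CPM in si-4c, against 15.3 to 17.3 CPM in con-4c and 7.45 to 9.53 CPM in si-2c. At 4c it was higher than at 2c among the con libraries (2.07 ± 0.19, edgeR adjusted p = 2.20e-07), and relative to con the si libraries were higher at 2c (1.14 ± 0.19, adjusted p = 0.000194) and lower at 4c (−2.06 ± 0.19, adjusted p = 2.21e-07).

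PABPN1L, the poly(A)-binding protein of the early embryo that takes part in clearing maternal mRNA, had the opposite order. It was at 7.29, 7.31 and 11.2 CPM in con-2c and 7.02, 7.92 and 6.21 CPM in si-4c, against 4.67, 3.28 and 2.86 CPM in con-4c and 5.46, 4.15 and 2.68 CPM in si-2c. Relative to con-2c it was lower in con-4c (log2 difference −1.25 ± 0.27 SE, by edgeR adjusted p = 0.00144) and in si-2c (−1.07 ± 0.26, adjusted p = 0.00533). By library totals these were −0.99 (adjusted p = 0.0119), under the limit on the fold, and −0.69 (adjusted p = 0.0632), and the second was also under that limit without con-2c replicate 3 (−0.83) or si-2c replicate 3 (−0.84). EIF4E3, a relative of the cap protein, was lower in con at 4c than at 2c (−1.15 ± 0.17, edgeR adjusted p = 3.83e-05) and at 4c higher in si than in con (1.10 ± 0.17, adjusted p = 6.06e-05), and with library totals these were −0.87 and 0.84, under the limit on the fold, as was the first without con-2c replicate 1 (−0.97). IGF2BP1, an mRNA-binding protein of fetal tissues, had 0 counts in all con-2c and si-4c libraries, 16, 11 and 32 counts in con-4c and 17, 9 and 2 counts in si-2c. Against a floor of 3 counts in each con-2c library its level was at least 6.98-fold higher in con-4c and at least 2.52-fold higher in si-2c, although 1 si-2c library was itself under the floor. Without si-2c replicate 1 the second bound fell to 1.54-fold, and the edgeR call between si and con at 2c was lost in 6 of 12 fits that each left out 1 library (adjusted p up to 0.0797). The oocyte marker sum, though not BMP15 and ZP2 among its members, was high in the groups where PABPN1L and EIF4E3 were high and low in those where PABPC1 and EIF4G1 were high, and its part in these values was not tested.

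**Figure D4:**
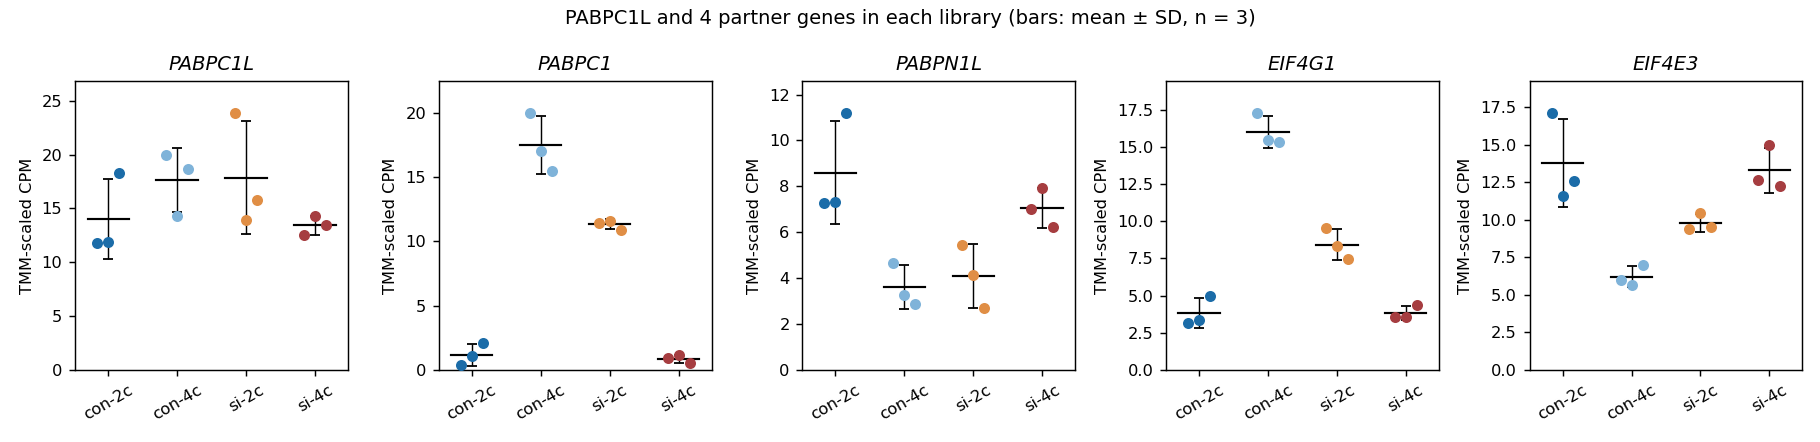
Level of PABPC1L and of 4 partners in each library, as TMM-scaled CPM on the y axis from 0, by group on the x axis. Points are libraries, wide bars group means and narrow bars 1 SD (n = 3). PABPC1 and EIF4G1 are high in con-4c and si-2c, PABPN1L and EIF4E3 are high in con-2c and si-4c, and the groups of PABPC1L overlap.

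As a description of how the genes vary, the Pearson correlation of their log2 CPM over the 12 libraries was taken, which share 4 groups and are not 12 independent conditions. ZAR1L varied with EIF4ENIF1 (r = 0.79), PATL2 (0.788), CPEB1 (0.741) and ZAR1 (0.70), and against LSM14B (−0.559) and PABPC1L (−0.519). YBX2 varied most with EIF4ENIF1 (0.721), and CPEB4 had no coefficient above 0.342 with any of the others. Among 5314 other genes with a symbol and a mean of at least 10 CPM, the gene most like ZAR1L was HPF1 (r = 0.99), and 672 of the 5314 exceeded 0.9 with it. EIF4ENIF1 was nearest to PCBP1 (0.97), with 48 genes over 0.9. ZAR1 was nearest to GALNT11 (0.941), YBX2 to TDRP (0.928), LSM14B to GNB5 (0.907), CPEB1 to TBC1D7 (0.904), CPEB4 to MAPK14 (0.894) and PABPC1L to GATAD2A (0.886). The pattern of ZAR1L was therefore shared by many genes of the table, while those of CPEB4 and PABPC1L had 0 genes over 0.9.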

How the data were processed

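SMART-seq libraries of porcine IVF embryos were analysed from the gene table deposited by the authors, which holds raw counts per Ensembl gene with no normalization. The submitters' processing notes name cutadapt 1.9, HISAT2 2.2.1, StringTie 2.1.6, DESeq2, edgeR and the build Sscrofa11.1. The study's methods give DESeq2 for the differential analysis of these libraries and edgeR for that of its other sequencing. The roles of the other tools, the release of the annotation, whether strand was used and what was done with multi-mapping reads were not given in the sources used here. All columns were matched to library titles, and 0 columns were left unused.

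The test was run with edgeR 4.0.16 under R 4.3.3 (filterByExpr, TMM, quasi-likelihood, 4 group means over 12 libraries), with Benjamini-Hochberg adjustment over 17995 genes. A gene passed at an adjusted p below 0.05, and the study's limit of a 2-fold change, 1 on the log2 scale, was applied as a second rule. SE is the log2 difference over the root of its F. The biological coefficient of variation was 27.3%. Chi-square tests between replicates gave 7.27 to 38.7 for each degree of freedom, above sampling noise, so none was a second copy. The study speaks of independent experiments in general but not of separate fertilisations for these libraries, so p-values measure the spread between pools, which may be technical. Reads carry no molecular identifiers, so the floor of 3 counts covers counting error only. The scripts were tested on simulated data.

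Alternatives were library totals, RLE factors, no filter, a mean of at least 10 CPM, fits of 2 groups, a replicate block, DESeq2 1.42.0, adjusted p below 0.01, no minimum fold and leaving out each library. Named were all members, CCNB2, of the partner list up to 3 genes higher and 3 lower with the smallest p among those called in each main comparison, and for each member the most correlated other gene, and 2 of the genes so named are not reported here. IGF2BP1 is also described in con-4c. The members and lists were chosen with earlier results of these data known. Gene symbols came from the table, and positions from RefSeq. Sequences of the members were not used here.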

Additional observations from a re-analysis of the deposited data

Results flagged for a closer look

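The si effect differed between the 4c and the 2c libraries, by the test of that difference, for 7 of the 9 genes. On the log2 scale the effect at 4c exceeded that at 2c by 0.68 for CPEB1, 0.82 for ZAR1, 1.60 for ZAR1L, 0.57 for PATL2 and 0.72 for EIF4ENIF1, and it was lower by an interaction of −2.72 for LSM14B and −0.74 for PABPC1L. The median of all genes was −0.23 in the same term. With library totals, where that median was −0.88, ZAR1L alone stayed higher, at 0.95, while CPEB1, ZAR1, PATL2 and EIF4ENIF1 lay between −0.08 and 0.18 and were not called, and CPEB4, LSM14B and PABPC1L were lower, so that 1 gene was higher and 3 were lower. LSM14B missed the threshold in 7 and PABPC1L in 8 of 12 fits that each left out 1 library. Among all genes the same term passed the adjusted threshold upwards in 18.2% and downwards in 27.3%. The libraries titled si-4c correlated best with those titled con-2c, and those titled si-2c with con-4c, and the part of this in the interaction was not tested. Groups of 3 libraries were not tested for single outlying values.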

How the results depend on the processing

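ZAR1L kept its direction and its call at an adjusted p below 0.05 in each alternative run between the con stages, between si and con at 2c, between si and con at 4c, between the si stages and in the interaction, as did CPEB1 between the con stages. Library totals in place of TMM changed most. Between the con stages they gave 1 gene higher and 2 lower of any size, YBX2 at 0.021 and PATL2 at 0.15. Between si and con at 2c they gave 4 higher and 1 lower of any size and 1 higher by at least 2-fold, with ZAR1 at 0.24, PATL2 at 0.10 and EIF4ENIF1 at 0.24. Between si and con at 4c they gave 1 higher and 1 lower, CPEB1 at −0.019 and CPEB4 at −0.15. Between the si stages they gave 1 higher and 4 lower, 1 lower by at least 2-fold, CPEB1 at −0.31, ZAR1 at −0.12 and EIF4ENIF1 at −0.17. In the interaction they gave 1 higher of any size, 0 higher and 2 lower by at least 2-fold, YBX2 at −0.41 and PATL2 at −0.080. The shift of the median over all genes accompanied these changes, and the cause was not tested.

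Fits of 2 groups gave 1 lower between si and con at 4c and 1 lower between the si stages, also by 2-fold. DESeq2 gave 1 lower in the first crossed comparison. In the second crossed comparison PABPC1L was at -0.00045 in DESeq2 and -0.00036 with RLE factors. An adjusted p below 0.01 left 0 lower by 2-fold in the interaction. A mean of at least 10 CPM, which left 7 members, gave 1 higher between si and con at 2c, 2 higher and 1 lower between si and con at 4c, 1 lower between the si stages, 1 lower in the first crossed comparison and 0 lower by 2-fold in the interaction, with CPEB4 at −0.025 between si and con at 4c and CPEB1 at −0.044 between the si stages. Without the filter 1 was higher between si and con at 2c, also by 2-fold, and 1 lower in the first crossed comparison. Without the minimum fold the counts were 4 lower between the con stages, 3 lower between si and con at 2c, 5 higher between si and con at 4c, 2 higher between the si stages, 1 higher in the second crossed comparison, and 5 higher and 2 lower in the interaction.

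Leaving out 1 library at a time gave 3 to 6 genes higher between si and con at 4c, 0 to 1 higher between si and con at 2c (also by 2-fold) and in the second crossed comparison, 0 to 1 lower in the first crossed comparison and between the si stages (also by 2-fold), and 0 to 2 lower in the interaction (0 to 1 by 2-fold). Signs turned only for differences that had not passed. CPEB4 ran from −0.00083 to 0.073 between the con stages, −0.060 to 0.064 between the si stages and −0.11 to 0.015 in the interaction. YBX2 ran from −0.050 to 0.27 between si and con at 2c, −0.053 to 0.24 in the first crossed comparison and −0.080 to 0.072 between the si stages. ZAR1 ran from −0.27 to 0.034 between si and con at 2c and −0.0013 to 0.27 in the first crossed comparison. In the first crossed comparison EIF4ENIF1 ran from −0.0059 to 0.10, LSM14B from −0.44 to 0.95 and PABPC1L from −0.17 to 0.15, and PABPC1L ran from −0.24 to 0.17 in the second crossed comparison.

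Same-numbered libraries did not deviate together over all genes (18 pairs, correlations of −0.05 to 0.03, 0 over 0.1). A small shared effect, or one in few genes, would not show in this check, and the labels do not say whether a number marks a pairing. With the replicate number as a block 0 genes were higher in the second crossed comparison (EIF4ENIF1, 0.36, adjusted p = 0.0628) and 1 was lower in the interaction (PABPC1L at −0.71, adjusted p = 0.0536), and the block changed no other call. Counts under about 100, as for LSM14B and IGF2BP1 and for PABPC1 in con-2c and si-4c, limit what these libraries can show.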
